A study of Mus musculus with 22 samples.

Results

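The mouse alpha-globin locus on chromosome 11 was examined for peaks of ATRX, DNA G-quadruplexes (G4), H3K9me3 and open chromatin (ATAC) in ES cells after knockdown of TERRA, the RNA transcribed from telomeric repeats. The locus was defined by 7 listed genes, Snrnp25, Rhbdf1, Mpg, Nprl3, Hba-x, Hba-a1 and Hba-a2, of 26182 genes with a curated RefSeq transcript. The rule uses no measured value. In the GRCm38 build, the first base of Snrnp25 to the last base of Hba-a2 is a span of 91.9 kb, chr11:32205415-32297310, with a GC content of 49.3%. All 7 genes could be placed. For each gene, the body and the stretch of 1 kb either side of the transcription start site (TSS, the most upstream curated start) were read in each of 16 peak lists. The cells of all groups were hybrid mouse ES cells of the background CAST/Ei x 129/Sv/Jae, grown with LIF, freed of fibroblast feeders, and aligned by the authors to the reference genome of another strain. They received scramble LNA gapmers (scramble KD) or LNA gapmers against TERRA (TERRA KD) and were collected 12 h later, with 2 replicates per condition in each assay. An LNA gapmer is an antisense oligonucleotide that directs cleavage of its target RNA, so TERRA was lowered and not deleted. The study calls its ATRX and G4 replicates biological, without saying how the cultures were kept apart, and p values measure only the spread between these libraries.

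The alpha-globin genes encode the alpha-type chains of haemoglobin and are expressed in erythroid cells. Hba-x makes the embryonic zeta chain and the near-identical pair Hba-a1 and Hba-a2 the adult alpha chain. Their enhancers lie upstream, mostly in introns of Nprl3, a gene expressed in most cells. ATRX is a chromatin remodeller that, with DAXX, deposits the histone variant H3.3 at telomeres, heterochromatin and other repeats, and binds G4-prone DNA, in which runs of guanines stack in planes. Mutations of human ATRX cause the ATR-X syndrome, in which alpha-globin expression is often reduced, and human ATRX binds a G-rich tandem repeat near the alpha-globin genes. H3K9me3 marks heterochromatin, where ATRX is often found. The globin genes are silent in ES cells, so peaks here describe the locus in a cell type that does not use it.

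The sequences on which the results turn are given first, in GRCm38 on the plus strand. The Mpg promoter (RefSeq, chr11:32226255-32226554) is shown because G4 peaks there were listed in scramble KD only. Capitals mark a G4 motif on the minus strand, defined as at least 4 runs of GGG or longer with 1 to 7 bases of any kind between runs, and seen here as its CCC complement.
Mpg promoter: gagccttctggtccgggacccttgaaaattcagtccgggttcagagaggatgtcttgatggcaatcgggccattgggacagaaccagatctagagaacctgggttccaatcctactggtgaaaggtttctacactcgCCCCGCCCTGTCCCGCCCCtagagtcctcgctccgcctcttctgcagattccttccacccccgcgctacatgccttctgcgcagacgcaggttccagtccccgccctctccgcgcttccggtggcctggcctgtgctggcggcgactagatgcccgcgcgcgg
The stretch of Rhbdf1 at chr11:32210498-32210797, with introns and coding exons of its 3′ part, is shown because it lay within ATRX peaks of both TERRA KD lists. Capitals again mark a G4 motif on the minus strand.
Rhbdf1 ATRX site: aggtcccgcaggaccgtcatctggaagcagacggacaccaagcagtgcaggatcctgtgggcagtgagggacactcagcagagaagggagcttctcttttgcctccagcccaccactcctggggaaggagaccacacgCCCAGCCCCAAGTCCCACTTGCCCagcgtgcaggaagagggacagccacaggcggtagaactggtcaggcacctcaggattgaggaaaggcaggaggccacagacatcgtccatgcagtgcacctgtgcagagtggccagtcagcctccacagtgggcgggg
The next pair are GC-rich tandem repeats, shown because G4 peaks lay on them in 3 or 4 of the 4 lists. In an intron of Nprl3, a unit of 35 bases was repeated about 15 times over chr11:32259646-32260169. The first 6 units, chr11:32259646-32259855, are shown with exact copies of the most common unit in capitals.
Nprl3 intron repeat: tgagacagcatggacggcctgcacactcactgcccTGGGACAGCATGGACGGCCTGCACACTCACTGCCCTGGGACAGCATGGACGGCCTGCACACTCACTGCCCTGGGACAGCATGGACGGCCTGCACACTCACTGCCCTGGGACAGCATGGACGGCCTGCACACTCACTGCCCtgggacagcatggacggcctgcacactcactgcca
Between Nprl3 and Hba-x, 2.88 kb upstream of the Hba-x TSS, the hexamer AGGCAG was repeated 41 times over chr11:32273593-32273838. Its left edge, chr11:32273553-32273672, is shown with the repeat in capitals.
Upstream repeat: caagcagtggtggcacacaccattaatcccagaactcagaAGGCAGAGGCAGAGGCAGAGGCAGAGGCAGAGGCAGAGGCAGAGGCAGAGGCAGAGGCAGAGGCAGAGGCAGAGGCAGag
The Hba-a2 promoter (RefSeq, chr11:32296242-32296541) is shown because 297 of its 300 bases had an identical partner in the Hba-a1 promoter, chr11:32283422-32283721, so that reads from one can be placed at the other. Capitals mark the transcribed bases.
Hba-a2 promoter: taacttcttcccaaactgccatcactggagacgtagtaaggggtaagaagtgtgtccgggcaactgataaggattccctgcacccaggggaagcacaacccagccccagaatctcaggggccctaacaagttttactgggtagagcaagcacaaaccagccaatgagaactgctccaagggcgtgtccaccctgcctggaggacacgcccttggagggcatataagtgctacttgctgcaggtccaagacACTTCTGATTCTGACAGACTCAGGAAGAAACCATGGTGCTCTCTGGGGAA

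With duplicates removed, the ATAC lists rested on 5976014 to 7883648 tags, the G4 lists on 2961038 to 24588605, the ATRX lists on 4104486 to 15506154 and the H3K9me3 lists on 5435286 to 13898785. Peak lists, not coverage, were analysed, so a gene without a peak is one where enrichment was not detectable at that depth. Tags, fold enrichment and p are not scaled between libraries and are compared only as ranks within a list. Where 4 values are given for an assay, they stand in the order scramble KD replicates 1 and 2, then TERRA KD replicates 1 and 2. The G4 list of scramble KD replicate 2 stood apart, with 389434 peaks over 403 Mb against 140119 to 225024 peaks in the other 3 lists. As a check of the labelled cell type, an ATAC peak lay within 1 kb of the TSS of 7 to 8 of 8 ES cell marker genes, with Pou5f1, Sox2 and Zfp42 open in all 4 lists. Such a peak was also found for 5 of 7 matched erythroid marker genes (8 listed) and for 3 to 5 of 8 fibroblast marker genes, where 59.4% to 64.2% of all genes had one, so open starts did not separate these cell types. Alas2 and Slc4a1 of the erythroid markers and Col3a1, Postn and Lum of the fibroblast markers had no such peak in any list. At the other globin locus, none of the 5 beta-globin genes had an ATAC peak at the TSS in any list. A condition was compared by the mean difference between TERRA KD and scramble KD, with a two-sided exact permutation test whose smallest p is 0.33 for 2 libraries against 2, so no comparison could pass 0.05.

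**Figure D1:**
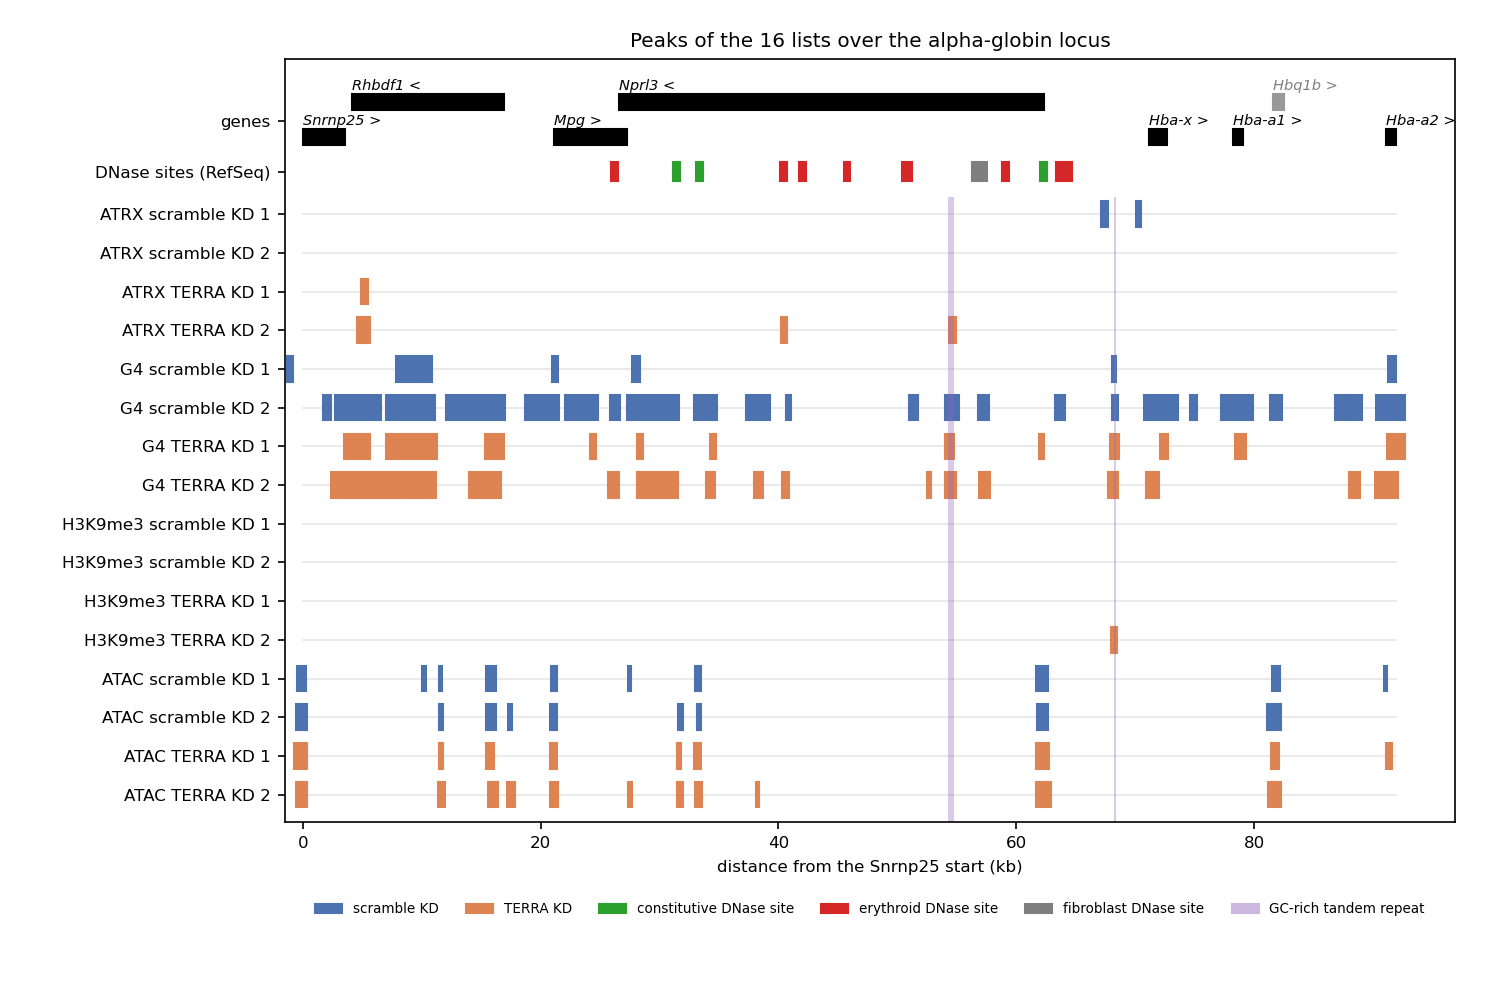
Peaks of each list (rows, bars to scale) against distance from the Snrnp25 start in kb, in blue for scramble KD and orange for TERRA KD, with the genes, RefSeq DNase sites and GC-rich tandem repeats. G4 and ATAC peaks were spread over the locus in all lists, ATRX peaks numbered 0 to 4 and a single H3K9me3 peak was listed.

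ATRX had few peaks at the locus. Over the span, scramble KD replicate 1 held 2 ATRX peaks and replicate 2 held 0, where TERRA KD replicate 1 held 1 and replicate 2 held 4. The mean was 1 ± 1.41 (SD, n = 2) in scramble KD and 2.5 ± 2.12 (SD, n = 2) in TERRA KD (difference 1.5, exact permutation p = 0.667), and the conditions overlapped. In windows of the same length tiled over the genome, the median was 0, 0, 1 and 0 peaks in these lists, and 21.0%, 32.0%, 64.3% and 41.9% of windows held any. None of the 7 ATRX peaks had a −log10 p above 2.47, against a floor of 2 in the lists. They ranked between 37.6% and 73.5% of the way down their lists and rested on 5 to 12 tags.

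Rhbdf1, which encodes an inactive rhomboid protein (chr11:32209585-32222331, minus strand), was the only listed gene with an ATRX peak over its body in both TERRA KD lists and in neither scramble KD list. The TERRA KD replicate 1 peak, chr11:32210296-32210881, had 5 tags, a fold enrichment of 9.50 and a −log10 p of 2.34. TERRA KD replicate 2 had peaks at chr11:32209959-32210360 and chr11:32210443-32211052, with 8 and 11 tags and fold enrichments of 4.26 and 3.55. The replicate 1 peak overlapped both, over 65 bp and over 439 bp, the latter at chr11:32210443-32210881, a stretch 61.5% GC that covers coding exons and introns of the 3′ part of the gene. Among all genes, 7.41% had this pattern over the body. The false discovery rate in the lists was 100% for the replicate 1 peak and 3.56% and 3.64% for the replicate 2 peaks.

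Over gene bodies, listed genes with an ATRX peak numbered 0 and 0 in scramble KD, against 9.42% and 12.2% of all genes. In TERRA KD they numbered 1 (Rhbdf1) and 2 (Rhbdf1 and Nprl3), against 32.6% and 24.3%. The conditions did not overlap, with a mean difference of 1.5 genes (exact permutation p = 0.33, the smallest possible). The share over all genes was likewise higher in both TERRA KD lists than in both scramble KD lists. Kept to peaks of −log10 p of at least 5, no ATRX peak remained at the locus. With equal numbers of top-ranked peaks, the Rhbdf1 peak remained in TERRA KD replicate 2 but not in replicate 1.

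Nprl3, a subunit of the GATOR complex that restrains mTORC1 signalling (chr11:32231963-32267707, minus strand), carried a pair of ATRX peaks in TERRA KD replicate 2. One, chr11:32259790-32260380, lay on the 35-base tandem repeat, 7.74 kb downstream of the TSS, with 12 tags and a fold enrichment of 6.39. The other, chr11:32245628-32246120, lay on R1, the enhancer of the alpha-globin genes annotated at chr11:32245544-32246028, with 9 tags and a fold enrichment of 4.26. No other ATRX list had a peak at either place. At the globin genes, ATRX was listed in scramble KD replicate 1 only. A peak at chr11:32275502-32275922, with 6 tags and a fold enrichment of 17.7, lay 0.796 kb upstream of the Hba-x TSS, and another at chr11:32272516-32273114, with 8 tags, lay 3.68 kb upstream. The false discovery rate in the list was 100% for both of these peaks, and 3.63% and 3.62% for the Nprl3 peaks of TERRA KD replicate 2. Only Hba-x, of the listed genes, had ATRX called near its TSS (1 kb either side) in any list (1, 0, 0 and 0 genes, exact permutation p = 1), against 1.07%, 0.592%, 8.23% and 4.84% of all genes. Mpg, Snrnp25, Hba-a1 and Hba-a2 had no ATRX peak in any list over the body or within 1 kb of the TSS.

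ATRX and G4 peaks coincided at the locus in TERRA KD. The single ATRX peak of TERRA KD replicate 1 and all 4 of replicate 2 overlapped a G4 peak of the same condition and number, where 19.2% and 26.8% of all ATRX peaks in these lists did. These were not all separate places. The replicate 1 peak and a pair of the replicate 2 peaks lay at the same Rhbdf1 site, and that pair fell on a single G4 peak. G4 peaks covered 14.5% of the span in TERRA KD replicate 1 and 26.5% in replicate 2. Neither ATRX peak of scramble KD replicate 1 overlapped a G4 peak of any of the 4 lists, and 9.37% of all its peaks overlapped one of the same condition and number. GC content ran from 47.3% to 60.9% over the 5 TERRA KD peaks and was 35.9% and 39.9% for the scramble KD peaks. With 7 peaks from 3 libraries, these are counts at 1 locus and no test of conditions. The number marks replicates of each assay and does not say that ATRX and G4 came from the same culture.

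A single H3K9me3 peak was listed at the locus. Over the span, the lists held 0 and 0 peaks under scramble KD and 0 and 1 under TERRA KD (exact permutation p = 1). In windows of the same length, 48.3%, 71.2%, 49.2% and 68.6% held at least 1 peak. This peak, chr11:32273366-32273850 in TERRA KD replicate 2, covered the AGGCAG repeat, 2.88 kb upstream of the Hba-x TSS, with 5 tags, a fold enrichment of 7.91 and a −log10 p of 2.48. No listed gene had an H3K9me3 peak at the TSS, where 2.28%, 1.96%, 2.36% and 2.07% of all genes had one, or over the body, where 14.5%, 22.0%, 13.8% and 21.9% did. The Rhbdf1 stretch with ATRX in TERRA KD thus had no H3K9me3 peak in any list.

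**Figure D2:**
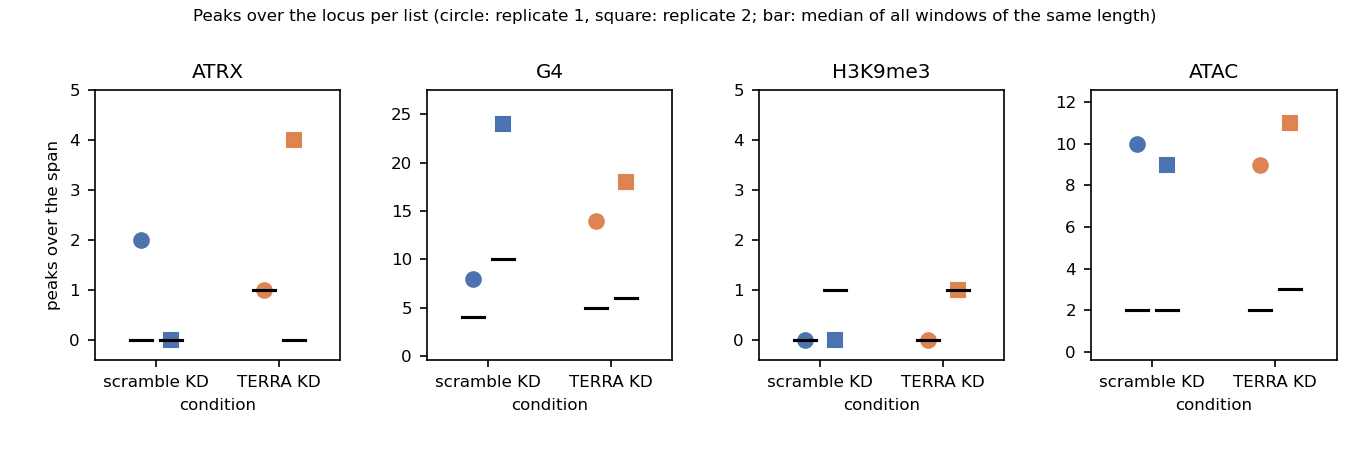
Number of peaks over the span in each list (circles replicate 1, squares replicate 2), with black bars at the median of all genome windows of the same length. G4 counts ran from 8 to 24 and ATAC counts from 9 to 11, each above its bar, while ATRX counts ran from 0 to 4 and H3K9me3 counts from 0 to 1.

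G4 peaks covered 5.22% to 47.9% of the locus, by list. The G4 lists held 8 and 24 peaks over the span under scramble KD and 14 and 18 under TERRA KD, with a mean of 16 in both conditions (SD 11.3 and 2.83, n = 2, exact permutation p = 1). Every list lay above the median of windows of the same length, which was 4, 10, 5 and 6 peaks, and 18.2%, 20.0%, 8.88% and 8.85% of windows held as many peaks as the locus or more. The peaks covered 5.22% and 47.9% of the span under scramble KD and 14.5% and 26.5% under TERRA KD. Within each condition the deeper library had more peaks. Depth went opposite ways in the replicates, rising from 2961038 tags in scramble KD to 5759282 in TERRA KD for the first replicates and falling from 24588605 to 13127555 for the others, and peaks over the span went the same ways. For G4 peaks over the span, the false discovery rate in the lists was 0.06% to 0.17% and 0.87% to 1.6% in scramble KD. In TERRA KD it was 0.28% to 3.35% and 11.22% to 15.15%, highest in replicate 2. Both G4 lists of a condition also had the same input depth, so input went with condition. The parts of depth and input in these counts were not tested.

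Mpg, the DNA glycosylase that removes alkylated purines in base excision repair (chr11:32226505-32232702, plus strand), was the only listed gene with G4 called at its TSS, 1 kb either side, in both scramble KD lists and in neither TERRA KD list. In scramble KD replicate 1, the peak at chr11:32226399-32226908 had 7 tags, a fold enrichment of 16.3 and a −log10 p of 5.66, with its summit 104 bp downstream of the TSS. In scramble KD replicate 2, a broad peak, chr11:32224092-32226924, had 108 tags, a fold enrichment of 6.89 and a −log10 p of 19.7. Its summit lay 1.68 kb upstream of the TSS, outside the window. A second peak, chr11:32227502-32230219, reached only the edge of the window, with its summit 3.27 kb downstream. Both scramble KD libraries thus had a G4 peak overlapping the motif printed above, and the TERRA KD libraries had none. TERRA KD replicate 1 was deeper than scramble KD replicate 1, TERRA KD replicate 2 was shallower than scramble KD replicate 2, and the part of depth in this pattern was not tested. The Mpg window held 3 G4 motifs, the most of any listed gene, on the minus strand at 104, 273 and 726 bp upstream of the TSS. Among all genes, 4.74% had this pattern at the TSS. The Mpg call was the same when peaks had to reach a −log10 p of 5, with equal numbers of top-ranked peaks and with at least 50% of the peak in the window. It was lost with a window of 5 kb, where all 4 lists had a peak. In TERRA KD, the first G4 peaks downstream of the TSS had summits at 3.36 kb in replicate 1 and 5.23 kb in replicate 2. The Mpg TSS had an ATAC peak in all 4 lists.

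The other listed genes did not share this pattern. A G4 peak lay within 1 kb of the TSS of 3 and 6 listed genes in scramble KD, against 41.2% and 64.1% of all genes, and of 5 and 3 in TERRA KD, against 48.5% and 22.1%. The mean was 4.5 ± 2.12 genes in scramble KD and 4 ± 1.41 in TERRA KD (SD, n = 2, exact permutation p = 1), and from scramble KD to TERRA KD the count was higher in replicate 1 and lower in replicate 2. Kept to peaks that reach a −log10 p of 5, the counts were 1 (Mpg) and 5 (Rhbdf1, Mpg, Hba-x, Hba-a1 and Hba-a2) in scramble KD, against 16.8% and 38.4% of all genes. In TERRA KD they were then 0 and 0, against 20.6% and 6.22%, so the conditions no longer overlapped (difference −3, exact permutation p = 0.33, the smallest possible). Apart from Mpg, the genes so called came from scramble KD replicate 2 alone, the deepest G4 library. In that list, the best peaks at Rhbdf1, Mpg and Hba-x had summits outside the window, at 2.52, 1.68 and 1.16 kb from the TSS. The peak with its summit 82 bp upstream of the Hba-x TSS had a −log10 p of 4.996, below the limit. Hba-a2 was the only listed gene with a peak of any strength in all 4 lists, as were 9.16% of all genes. Its −log10 p was 2.24 and 15.6 under scramble KD and 2.9 and 2.82 under TERRA KD, and the summits lay 463 to 631 bp downstream of the TSS, within the gene. Its near-copy Hba-a1 had a peak in scramble KD replicate 2 (−log10 p 13.2) and TERRA KD replicate 1 (3.0) only. Of the sequences of 150 bp in the gene bodies, 78.4% for Hba-a1 and 77.6% for Hba-a2 occurred more than once in the genome, so the placement of reads between the pair is uncertain. Hba-x had a peak in scramble KD replicate 2 (13.2) and in both TERRA KD lists (2.37 and 2.89). Rhbdf1 had one in the same 3 lists (27.6, 4.01 and 2.42). In TERRA KD, summits also lay outside the window at Hba-x in replicate 1 (1.07 kb) and at Rhbdf1 in replicate 2 (1.43 kb).

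Nprl3 had a G4 peak overlapping the TSS window in scramble KD replicate 2 and TERRA KD replicate 1 (3.40 and 3.45). These were different sites, with summits 1.33 kb upstream of the TSS, outside the window, and 0.238 kb downstream. Snrnp25 encodes a protein of the minor spliceosome (chr11:32205415-32208996, plus strand). It had a G4 peak overlapping its TSS window in scramble KD replicate 1 only. That peak lay at chr11:32204077-32204575 in an intron of the neighbouring gene Il9r, with a −log10 p of 4.72 and its summit 1.16 kb upstream. Over gene bodies, 4 and 7 listed genes had a G4 peak under scramble KD and 7 and 6 under TERRA KD, against 64.0% and 83.8%, and 71.3% and 69.5%, of all genes (exact permutation p = 1). Rhbdf1, Mpg, Nprl3 and Hba-a2 had one in all 4 lists, as did 53.2% of all genes. In the middle of Rhbdf1, all 4 lists had G4 peaks, and their ranks differed. In TERRA KD replicate 1 the peak there, chr11:32212423-32215232, had 62 tags and a −log10 p of 20.9 and ranked in the top 0.917% of its list. In scramble KD replicate 2 the peak chr11:32212399-32216511 had 195 tags and a −log10 p of 46.9, in the top 1.07%. The best peak there stood at 3.14% of the list in TERRA KD replicate 2 and at 27.2% in scramble KD replicate 1, where the other 3 stood at 55.4% to 77.2%.

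**Figure D3:**
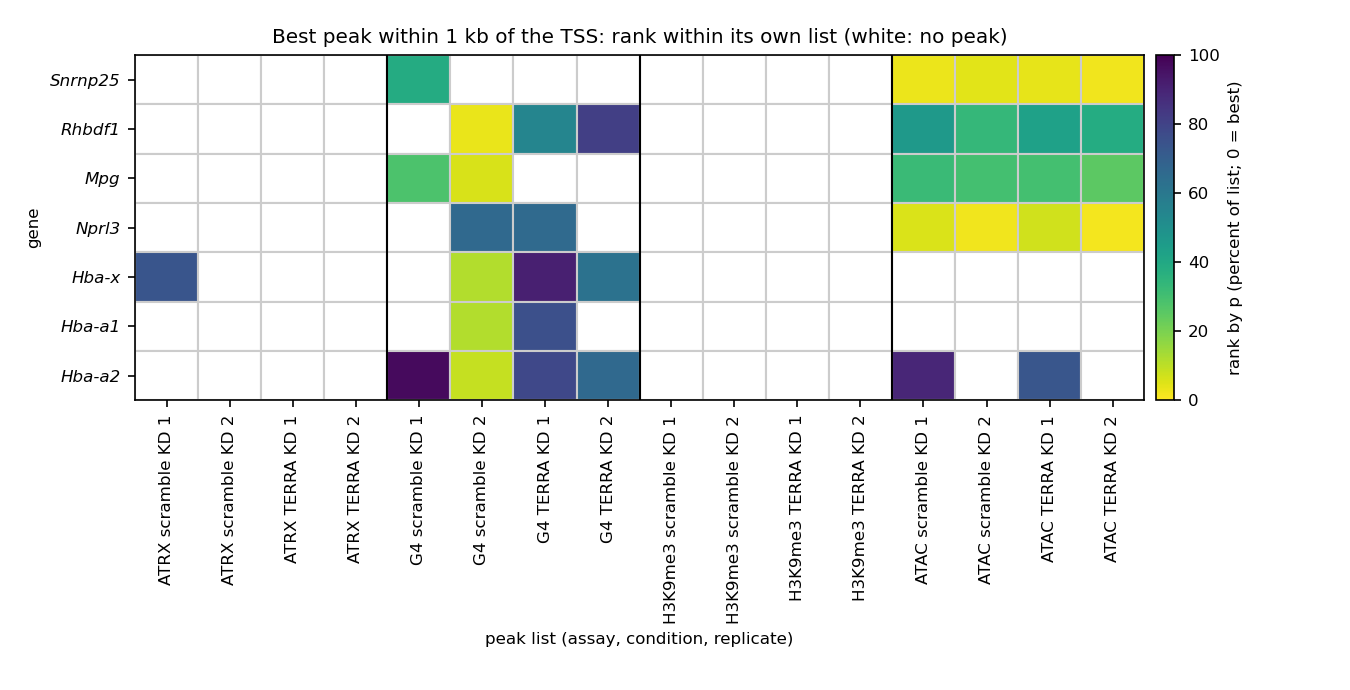
For each listed gene (rows) and each list (columns), the rank of the best peak within 1 kb of the TSS as a percent of its own list, with yellow for the best ranks and white for no peak. Mpg was filled in both scramble KD and neither TERRA KD G4 list, Hba-a2 in all 4 G4 lists, and Snrnp25, Rhbdf1, Mpg and Nprl3 in all 4 ATAC lists.

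G4 peaks lay on both GC-rich tandem repeats of the locus. A scan for units of 5 to 60 bases, repeated at 80% identity or more over at least 150 bp, found 4 repeats in the span. Of these, 2 were GC-rich, with 65.5% and 66.7% GC, and their sequences are printed above. The AGGCAG repeat had a G4 peak in all 4 lists, with 4 and 49 tags under scramble KD and 21 and 31 under TERRA KD. Its fold enrichment was 9.03 and 13.7 under scramble KD and 15.3 and 12.6 under TERRA KD, and the peaks ranked in the top 83.5%, 5.40%, 8.13% and 2.97% of their lists. The peak was thus weak in scramble KD replicate 1, the shallowest G4 library, and high in the other 3. The 35-base repeat in the Nprl3 intron had a G4 peak in scramble KD replicate 2 and both TERRA KD lists, with 65, 19 and 43 tags and fold enrichments of 10.3, 14.3 and 13.5. In TERRA KD replicate 2 it ranked 508 of 225024 peaks, the top 0.226%, with a false discovery rate of 11.22%. Of the other 2 repeats, AGAAGA (33.5% GC) had no G4 peak and AAAGAAAG (42.2% GC) had one in replicate 2 of both conditions. Neither GC-rich repeat held a G4 motif as defined above. Reads from repeats are hard to place, and 100% of the 150-bp sequences in the AGGCAG repeat and 39.5% in the 35-base repeat occurred more than once in the genome. Whether peaks there reflect read placement was not tested.

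The span held 18 G4 motifs. G4 peaks covered 3 and 14 of them under scramble KD and 6 and 7 under TERRA KD. As a share this was 16.7% and 77.8%, and 33.3% and 38.9%, above the share of the span that the same peaks covered in each list (5.22%, 47.9%, 14.5% and 26.5%). Of the G4 peaks over the span, 3 of 8, 10 of 24, 4 of 14 and 5 of 18 held a motif, so most did not. An excess of motifs over the share of the span was not particular to the G4 lists. ATAC peaks held 16.7%, 22.2%, 22.2% and 16.7% of the motifs on 5.51%, 5.73%, 5.61% and 7.65% of the span. The 1 and 4 ATRX peaks of the TERRA KD lists held 5.56% and 11.1% of them on 0.638% and 2.28%. The ATRX peaks of scramble KD replicate 1 and the single H3K9me3 peak held none. The pair of motifs in the 3′ part of Rhbdf1 were covered by G4 peaks in both TERRA KD lists and in scramble KD replicate 2, and the one at chr11:32210636-32210659 by ATRX peaks in both TERRA KD lists. Of the 6 listed genes with a RefSeq promoter sequence (250 bases before to 50 after the start), 2 held a motif, against 18.6% of 32851 promoters. Rhbdf1 was not among those 6.

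ATAC peaks overlapped the stretch 1 kb either side of the start of the non-globin genes in every list, and that of few globin genes. Snrnp25, Rhbdf1, Mpg and Nprl3, the genes outside the globin family, had an ATAC peak within 1 kb of the TSS in all 4 lists, as had 57.1% of all genes. At Rhbdf1 in replicate 1 of both conditions, this was a peak within the gene that reached the edge of the window. Its summit lay 0.983 kb downstream of the TSS in scramble KD and 1.263 kb in TERRA KD. Rhbdf1 lost its call in these lists when at least 50% of the peak had to lie in the window. Hba-x and Hba-a1 had no ATAC peak within 1 kb of the TSS in any list. Hba-a2 had one in replicate 1 of both conditions, with −log10 p of 3.87 in scramble KD and 5.13 in TERRA KD, and none in replicate 2. Counts were thus 5 and 4 genes in both scramble KD and TERRA KD (exact permutation p = 1), against 59.4%, 63.5%, 62.3% and 64.2% of all genes. The same counts held over gene bodies, against 69.2%, 72.7%, 71.4% and 73.7%, and the same 4 genes were open over the body in all lists, as were 66.8% of all genes. CpG dinucleotides within 1 kb of the TSS numbered 59 to 145 in the 4 open genes and 15 to 29 in the 3 listed globin genes, with 47 at Hbq1b and 39 at Hbq1a, theta-like globin genes that were open in all 4 lists, and GC content overlapped, at 51.4% to 63.8% and 46.1% to 53.1%.

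Among the open genes, the best peak overlapping the TSS window had a lower fold enrichment at Mpg and Rhbdf1 in every list. At Nprl3, the fold enrichment over the library's own background was 12.4 and 14.2 under scramble KD and 11.1 and 14.2 under TERRA KD. At Snrnp25 it was 12.6 and 10.9 under scramble KD and 11.1 and 12.6 under TERRA KD. Nprl3 and Snrnp25 changed places between lists. At Mpg it was 6.0 and 6.12, and 5.67 and 5.89, and at Rhbdf1 4.26 and 4.87, and 4.06 and 3.89. Within each list, Mpg lay above Rhbdf1 and below both of the others. Ranks gave the same picture, with Nprl3 and Snrnp25 in the top 1.80% to 7.34% of their lists and Mpg and Rhbdf1 between 25.3% and 46.2%. The sites were unlike, since the Rhbdf1 values came from a peak within the gene, with summits 0.857 to 1.265 kb downstream of the TSS. At Nprl3, Snrnp25 and Mpg, summits lay 0.031 to 0.237 kb from the TSS. A peak nearer the Rhbdf1 TSS was listed in replicate 2 only, with fold enrichments of 3.81 in scramble KD and 2.97 in TERRA KD. Over the span, ATAC peaks numbered 10 and 9 under scramble KD and 9 and 11 under TERRA KD (difference 0.5, exact permutation p = 1), where windows of the same length had a median of 2 or 3.

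ATAC peaks lay on the constitutive DNase sites of the locus and on none of the erythroid sites. RefSeq annotates 12 DNase hypersensitive sites upstream of the globin genes at approximate positions, 3 of them constitutive, 7 erythroid and 2 of fibroblasts. An ATAC peak lay on 2 and 3 of the 3 constitutive sites in scramble KD and on 3 and 3 in TERRA KD. The 7 erythroid and 2 fibroblast sites had none in any of the 4 lists. The constitutive sites were HS-39 (chr11:32236504-32237103), open in all lists except scramble KD replicate 1, HS-38 (chr11:32238504-32239103) and HS-10 (chr11:32267411-32268010), which holds the Nprl3 TSS. None of the 5 annotated enhancers R1, R2, R3, Rm and R4 had an ATAC peak in any list. All but Rm overlap erythroid sites (HS-31, HS-26, HS-21 and HS-8 in turn), so they are mostly the same places. Of the enhancers, R1 had a G4 peak in TERRA KD replicate 2. In scramble KD replicate 2, a G4 peak reached only the edge of R1, with its summit outside the enhancer. R3 and R4 overlapped a G4 peak in scramble KD replicate 2 only. The part of feeder fibroblasts in these lists was not tested beyond the fibroblast sites and markers given here.

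**Figure D4:**
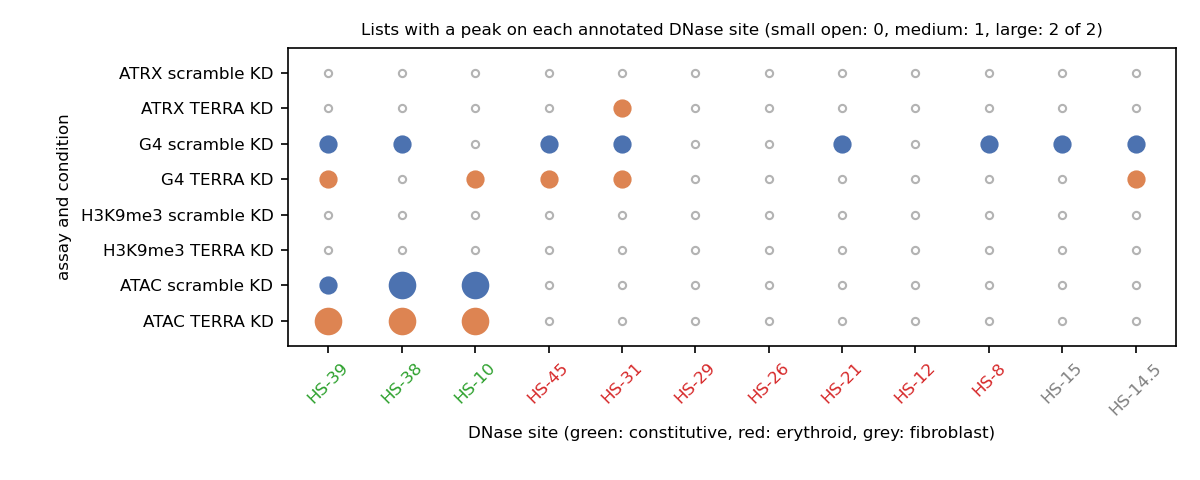
Lists with a peak (0, 1 or 2 of 2, by circle size) on each of 12 annotated DNase sites (columns), for each assay and condition (rows). ATAC peaks occupied the 3 constitutive sites in both conditions and none of the 9 others, and the only ATRX peak was on HS-31, the site of enhancer R1.

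The neighbouring genes placed these values. Hbq1b, a theta-like globin gene between Hba-a1 and Hba-a2 (chr11:32286964-32287912), and Hbq1a, just outside the span, had an ATAC peak within 1 kb of the TSS in all 4 lists, unlike Hba-x and Hba-a1. At Hbq1b the summit lay 3.47 to 3.55 kb downstream of the Hba-a1 TSS, with a fold enrichment of 6.32 and 7.72 under scramble KD and 8.5 and 9.32 under TERRA KD, values that are not scaled between libraries. Both theta-like genes had a G4 peak in scramble KD replicate 2 only and no ATRX or H3K9me3 peak. The 4 nearest protein-coding genes outside the span, 1 of which is Hbq1a, had an ATRX peak over the body in 0 and 0 cases in scramble KD and in 2 and 1 in TERRA KD. Among all genes, 9.42%, 12.2%, 32.6% and 24.3% had one there. The 5 beta-globin genes had no ATRX or H3K9me3 peak at the TSS or over the body in any list. Over the body, 13.8% to 22.0% of all genes had an H3K9me3 peak. At the TSS, a G4 peak was listed for 0 and 2 beta-globin genes under scramble KD and 0 and 1 under TERRA KD. Of 7 erythroid regulators, 7 and 7 had a G4 peak there under scramble KD and 6 and 3 under TERRA KD. Among all genes, 41.2%, 64.1%, 48.5% and 22.1% had a G4 peak at the TSS. An ATRX peak at the TSS was listed for 0 and 0, then 1 and 0, regulators, and for 1.07%, 0.592%, 8.23% and 4.84% of all genes.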

How the data were processed

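The authors trimmed reads with Trim Galore 0.5.0, aligned them to mm10 (GRCm38) with Bowtie2 2.3.4.1 and removed duplicates with SAMtools 1.9, per the labels and methods. Peaks were called by the authors per sample with MACS 1.4.3 (ATRX, H3K9me3) and 1.4.2 (G4) against input, and 2.2.7.1 (ATAC) without input, and every deposited −log10 p was at least 2. The deposited lists give tag counts, −log10 p-values, fold enrichment (a ratio), a false discovery rate in percent, and for ATAC a pileup signal and a peak score that was not used. Depth per list, 2961038 to 24588605 tags, limits which sites can be called, and fixed-depth comparison was not possible without coverage.

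Peaks were counted with Python 3.11.15 and numpy 2.4.6 over the span, gene bodies and TSS windows (1 kb either side, 1 bp overlap or more). Genes came from RefSeq, and k-mers of 150 bp were counted in the reference genome. Windows of the span's length were tiled over the genome, leaving out those with over 10% unsequenced bases. Groups came from the sample labels, and 12 comparisons used a two-sided exact permutation test. The scripts were tested on simulated data. All 7 listed genes are named whatever their values, and other genes by lists. The members and lists were chosen with earlier results of these data known. Alternatives were a stricter p, equal list lengths, 50% of the peak, wider windows, all transcript starts, left-out replicates and the replicate block. RefSeq promoters run from 250 bases before to 50 after the start.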

Additional observations from a re-analysis of the deposited data

How the results depend on the processing

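No comparison could pass 0.05 under any setting, so the values below are differences in count, TERRA KD minus scramble KD. With peaks of −log10 p of at least 5, the difference was 0 for all 3 ATRX measures, for H3K9me3 over the span and for ATAC over the span, −4.5 for G4 over the span, −3 for G4 at the TSS (−0.5 without this limit), 0.5 for ATAC at the TSS and over bodies, and reversed to −2.5 for G4 bodies. With equal numbers of top-ranked peaks it was 0.5 for ATRX over the span, −0.5 for G4 over the span and reversed to −0.5 for G4 bodies. Requiring 50% of the peak gave 0 for G4 at the TSS and 0.5 for ATAC bodies. A TSS window of 5 kb gave 0 for ATRX, 0.5 for H3K9me3 and a reversed 0.5 for G4. Adding 50 kb to either side of the span gave −4 for G4, 3 for ATRX and 1.5 for ATAC, and counting all transcript starts gave −1 for G4 at the TSS. The cause of these moves was not tested.

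Leaving out a replicate number or, as an alternative chosen after seeing the data, a single library, moved the ATRX difference over the span from −1 to 4, G4 over the span from −8 (without scramble KD replicate 1) to 8 (without scramble KD replicate 2), G4 at the TSS from −3 to 2, G4 bodies from −1 to 3 and ATAC over the span from −1 to 2. G4 at the TSS was 1 without scramble KD replicate 2 and 0.5 without TERRA KD replicate 2, G4 bodies −0.5 without scramble KD replicate 1, and ATAC over the span −0.5 without TERRA KD replicate 2. Repeats for single genes were also chosen after seeing the data. The Mpg difference in G4 lists was −2 except with the 5 kb window (0), and the Rhbdf1 difference in ATRX lists was 2 except at −log10 p of at least 5 (0) and at equal list lengths (1).

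The replicate block was a sign-flip test over 2 pairs, whose smallest p is 0.5. For the ATRX body difference of 1.5 genes it gave an exact p of 0.5. The block could not move any difference, since the mean of the paired differences equals the difference of the means. Deviations of same-numbered libraries over 2731 stretches of 1 Mb correlated at 0.00736 for ATRX, 0.488 for G4, 0.360 for H3K9me3 and 0.191 for ATAC. No label says that the number marks a shared culture or day.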

Other observations

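The AGGCAG repeat upstream of Hba-x belongs to a kind found elsewhere in the genome, which was examined after its peaks at the locus were seen. Tracts of at least 6 exact copies of the same hexamer, in any register that reads GGCAGA, numbered 1593 in GRCm38. A G4 peak lay on 65.5% and 88.3% of them in scramble KD and on 81.4% and 83.6% in TERRA KD. An ATRX peak lay on 0.439% and 0.753% in scramble KD and on 8.29% and 5.65% in TERRA KD. The ATRX lists of TERRA KD also held more peaks in all, 41384 and 21718 against 7321 and 13652. An H3K9me3 peak lay on 6.97% and 9.92% in scramble KD and on 4.52% in both TERRA KD lists, and an ATAC peak on 2.70% and 3.58%, then 7.97% and 7.47%. Lists differ in length and depth, and reads from such tracts are hard to place, so their part in these shares was not tested.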
